A study of Mus musculus with 2 samples.

Results

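Some genes that are known from germ cells, brain or leukocytes were among the counted genes of these mouse heart libraries, and each lies tail to tail with a gene on the other strand. They are Sycp3 opposite Chpt1, Nkx6-2 opposite Inpp5a, Prss57 opposite Fstl3, and Itgad, whose opposite neighbour is Cox6a2. Ccdc127 opposite Lrrc14b is described with them, although Ccdc127 is not known as a tissue-restricted gene and its neighbour Lrrc14b is the one known from muscle. The genes were chosen by name, with their counts in these same libraries known, so their high counts are a description of that choice. The members are 9 of 25004 genes: Sycp3, Nkx6-2, Prss57 and Ccdc127, the more counted genes of 4 complete pairs, their opposite genes Chpt1, Inpp5a, Fstl3 and Lrrc14b, and Itgad.

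Hearts came from FvB/N mice aged 12 weeks. The control group was non-transgenic. The other group carried a transgene that encodes cMyBP-C, a thick-filament protein of the sarcomere, with its C0-C1f region deleted (cMyBP-C delta C0-C1f). The study compared messenger RNA between the 2 genotypes with 1 library per group, each from 3 hearts combined. Not given in the sources used here were the promoter that drives the transgene, the number of lines and the state of the endogenous gene. Without replicates no difference between the libraries has a p-value, and each interval given here is an exact 95% interval that covers counting error only.

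Sycp3 encodes a structural protein of the synaptonemal complex, the scaffold that joins paired chromosomes in meiosis. Nkx6-2 encodes a homeodomain transcription factor of the developing nervous system and of oligodendrocytes. Prss57 encodes a serine protease stored in neutrophil granules, and Itgad encodes an integrin alpha subunit of leukocytes that pairs with the beta subunit Itgb2. The opposite genes have other known roles: Chpt1 catalyses the last step of phosphatidylcholine synthesis, Inpp5a removes a phosphate from the calcium-releasing messenger inositol trisphosphate, Fstl3 is a secreted inhibitor of activin and myostatin, and Lrrc14b encodes a leucine-rich repeat protein. Ccdc127 encodes a coiled-coil protein. When genes run toward each other on opposite strands, their last exons can cover the same bases, and a read from such bases belongs to a gene only if its strand is known.

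The same bases read on each strand are shown for the pairs in which the shared stretch codes for protein in at least 1 of the genes. Each sequence is 30 bases from GENCODE transcripts on GRCm38, 5′ to 3′ in the sense of the gene named, and capitals mark the last sense codon of Sycp3 or of Lrrc14b and the same bases on the other strand. The Sycp3 and Chpt1 lines cover chr10:88472926-88472955 (plus strand for Sycp3, minus for Chpt1), and the Lrrc14b and Ccdc127 lines cover chr13:74360757-74360786 (minus strand for Lrrc14b, plus for Ccdc127).
Sycp3: gttcgaaagtctcttcaatccatgttaTTC
Chpt1: GAAtaacatggattgaagagactttcgaac
Lrrc14b: aacttttccagagcactagaacaaatgGAG
Ccdc127: CTCcatttgttctagtgctctggaaaagtt
Each line is the reverse complement of its partner, so a read from these bases is sense for either gene, depending on the strand it is assigned to.

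**Figure D1:**
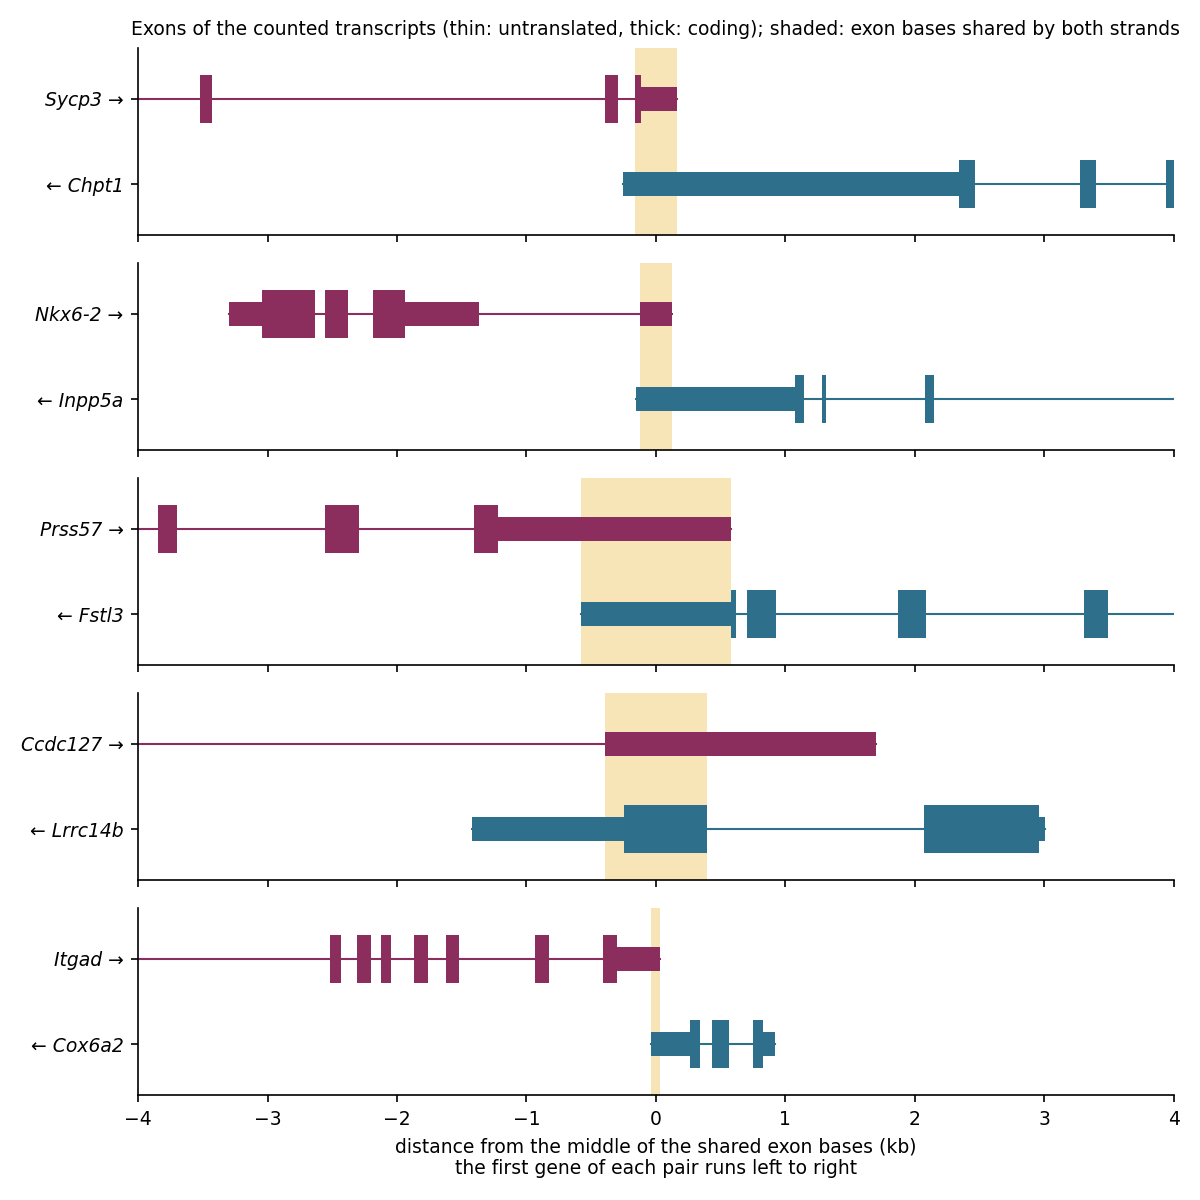
Exons of the counted transcripts of each pair, with distance in kb from the middle of the exon bases that both strands share (shaded); the upper gene of each panel runs left to right and the lower right to left, thick boxes are coding and thin boxes untranslated. For Inpp5a, which had no count, the NM_183144 model is drawn. In every panel the shared bases lie in the last exon of both genes, from 70 bases in Itgad and Cox6a2 to 1157 in Prss57 and Fstl3.

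In all 5 arrangements the shared bases lay in the last exon of both counted transcripts, away from the start of Sycp3, Nkx6-2, Prss57, Ccdc127 and Itgad. Sycp3 (Entrez gene 20962, chromosome 10, 88459587 to 88473236, plus strand, GRCm38) shared 331 bases with Chpt1 (88469513 to 88503970, minus strand), 29.1% of the Sycp3 transcript. Of these, 51 bases code in Sycp3 and none in the counted Chpt1 transcript. Against the exons of all annotated Chpt1 transcripts, the Sycp3 transcript shared 535 bases (47.0%), of which 255 code in Sycp3. Nkx6-2 (Entrez gene 14912, chromosome 7, 139579376 to 139582797, minus strand) shared 246 bases, 12.9% of its counted transcript, with the last exon of Inpp5a (139389074 to 139579652, plus strand), untranslated in both. Prss57 (Entrez gene 73106, chromosome 10, 79781474 to 79794684, minus strand) shared 1157 bases with Fstl3 (79777274 to 79782630, plus strand), which is 43.0% of the Prss57 and 59.2% of the Fstl3 transcript and is untranslated in both. Ccdc127 (Entrez gene 67433, chromosome 13, 74350317 to 74365783, plus strand) spans the whole of Lrrc14b (74359582 to 74364000, minus strand). Their counted transcripts shared 795 bases, of which 643 code in Lrrc14b and 6 in Ccdc127. Against the exons of all annotated Ccdc127 transcripts, all 2755 bases of the Lrrc14b transcript were shared, 1530 of them coding in Lrrc14b. Itgad (Entrez gene 381924, chromosome 7, 128173933 to 128205504, plus strand) shared the fewest, 70 bases or 1.77% of its transcript, with Cox6a2, which encodes the heart and muscle form of a cytochrome oxidase subunit.

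Sycp3 was counted at a level that placed it among the most counted genes of both libraries. It had 968 counts in the control and 1016 in the transgenic library, ranks 20 and 21 of all genes. Chpt1 had 33 and 42 counts. Of the counts on this pair, 96.7% (counting interval 95.4 to 97.7) lay on Sycp3 in the control and 96.0% (94.7 to 97.1) in the transgenic library. Per kb of merged exons, the scale on which genes of different length are compared here, Sycp3 had 766 and 804 counts and Chpt1 3.96 and 5.05. All Chpt1 counts fell on the accession NM_144807. The protein-coding NM_001146690 and the non-coding NR_027477 had 0 counts in both libraries. Of the 3898 bases of NM_144807, 2348 lie outside the other Chpt1 accessions, and NR_027477 has 0 bases of its own. Sycp3 has 1 accession. If reads common to several accessions were left out, the Chpt1 counts are too low beside those of Sycp3. The treatment of such reads was not given in the sources used here.

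The counts of Nkx6-2 lay entirely on a transcript that does not stand for its protein-coding form. The accession NR_027857, a non-coding entry annotated in GENCODE as a target of nonsense-mediated decay, had 1341 counts in the control and 1521 in the transgenic library, and the protein-coding NM_183248 had 0 in both. Nkx6-2 ranked 12 and 11 of all genes. The transcripts differ at the end nearest Inpp5a: NR_027857 has 608 bases outside NM_183248, and 246 of them are the bases shared with the last exon of Inpp5a, whereas NM_183248 shares none with Inpp5a and has 0 bases of its own. The 0 on NM_183248 therefore does not measure that transcript if reads common to both were left out, and the treatment of such reads was not given in the sources used here. Inpp5a had 0 counts on all 3 of its accessions in both libraries. A count of 0 allows up to 3 counts. This is 17.6 CPM (counts scaled to a common library total) in the control and 15.7 in the transgenic library. The count of Nkx6-2, not corrected for length, was 447-fold and 507-fold this floor of 3 counts per library. Of the Inpp5a accessions, NM_001127363 has 52 bases outside NM_183144, which has 0 of its own, and NM_001355162 had no GENCODE model. The same limit therefore applies to the 0 of Inpp5a, and these folds are not lower bounds if common reads were left out.

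Ccdc127 was counted as highly, and its neighbour Lrrc14b was the most counted of the 4 opposite genes. Ccdc127 had 1204 and 1140 counts, ranks 16 and 18, all on NM_001168658, while NM_001168659 and NM_024201 had 0. Lrrc14b had 91 and 103 counts. Ccdc127 held 93.0% (91.4 to 94.3) and 91.7% (90.04 to 93.2) of the pair's counts, the lowest shares among the 4 complete pairs. Per kb of merged exons, which span 9.56 kb in Ccdc127, it had 126 counts against 33.0 for Lrrc14b in the control and 119 against 37.4 in the transgenic library. With the length of NM_001168658 alone, which holds all its counts, Ccdc127 had 449 and 425 per kb. NM_001168658 differs from the others in its last exon, which starts at the bases shared with Lrrc14b. In the GENCODE models these bases also lie inside the longer last exon of the other accessions. NM_001168658 has 0 bases of its own there, so in these models all its counts lie on bases common to other accessions. NM_001168659 and NM_024201, which have the same model, have 6877 bases outside NM_001168658 and yet had 0 counts. Whether common reads were left out was not tested, and the transcript models behind the counts were not given in the sources used here.

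Prss57 and Itgad were counted at lower levels and differed between the libraries. Prss57 had 48 counts in the control and 137 in the transgenic library, and Fstl3 had 1 and 3. Prss57 held 98.0% (89.1 to 99.9) and 97.9% (93.9 to 99.6) of the pair's counts. Itgad had 45 and 146 counts, and Cox6a2 had 82 and 109. Itgad held 35.4% (27.2 to 44.4) of the counts on these genes in the control and 57.3% (50.9 to 63.4) in the transgenic library, so the intervals did not overlap. This share does not depend on how the libraries are scaled. Per exonic kb Itgad was below Cox6a2 in both libraries, at 9.98 against 121 and 32.4 against 160.

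**Figure D2:**
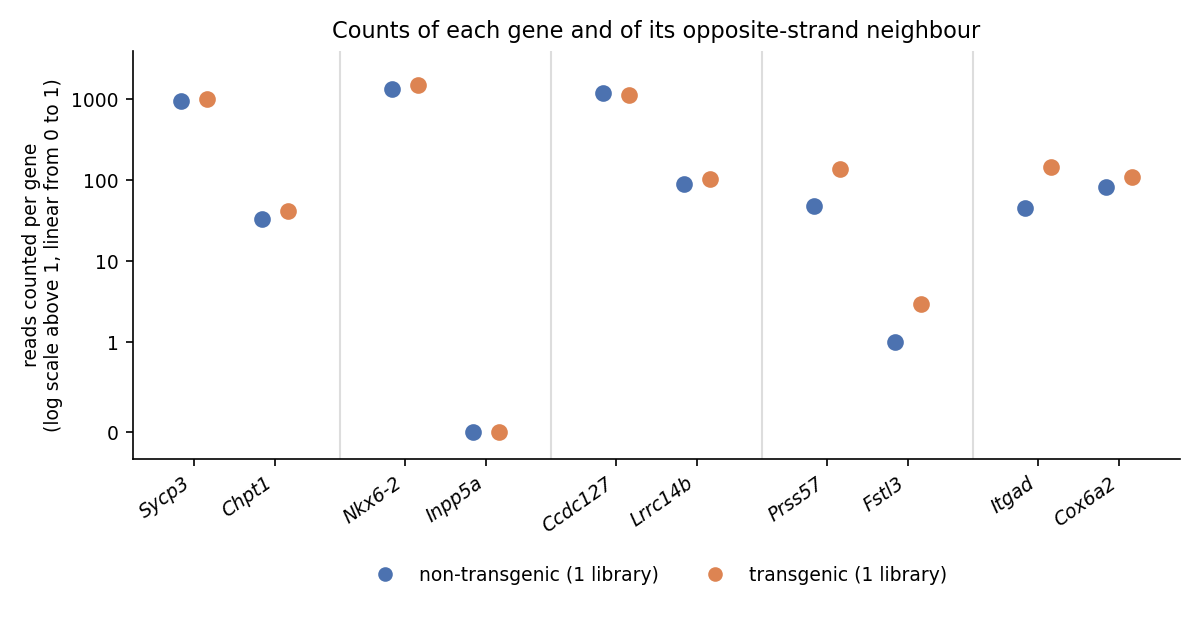
Counts of reads per gene in the control (blue) and transgenic (orange) library, 1 point per library, on an axis that is logarithmic above 1 and linear from 0 to 1; each gene stands beside its opposite-strand neighbour. Sycp3, Nkx6-2 and Ccdc127 lie between 968 and 1521 in both libraries, and their neighbours between 0 and 103.

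Ordered by counts per kb of merged exons in the control library, Sycp3 (766, counting interval 718 to 816) stood highest and Nkx6-2 (703, 666 to 742) next, with intervals that overlap. Ccdc127 followed at 126 and Lrrc14b at 33.0. Prss57 (16.9, 12.4 to 22.4) and Itgad (9.98, 7.28 to 13.4) came next, again with overlapping intervals, followed by Chpt1 at 3.96, Fstl3 at 0.409 and Inpp5a at 0. In the transgenic library Sycp3 had 804 and Nkx6-2 798. Prss57 (48.2, 40.5 to 57.0), Lrrc14b (37.4, 30.5 to 45.3) and Itgad (32.4, 27.3 to 38.1) lay so close there that each interval overlapped the next. Part of this order rests on the length used. With the length of the counted accession alone, Sycp3 had 850 and 892 while Nkx6-2 kept its values. Chpt1 then had 8.47 and 10.8 beside 11.3 and 36.8 for Itgad. Of the 1907 bases used as the length of Nkx6-2, 608 lie outside its other accession. If common reads were left out, the counts per kb of Nkx6-2 are too low here. Together Sycp3, Nkx6-2, Prss57 and Ccdc127 held 2.09% of all counts in the control and 1.999% in the transgenic library, 3561 and 3814 counts against 125 and 148 for their 4 opposite genes.

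Genes that act with Sycp3 in meiosis were almost all at 0, in libraries in which 67.2% of all genes had no count. Of 24 other genes of the synaptonemal complex and meiosis, 23 had 0 counts in both libraries, and Sycp2, a partner of Sycp3 in the same chromosome axis, had 2 and 0. Sycp1, which forms the transverse filaments, and Ddx4 and Dazl, which mark germ cells, were among those at 0. A single accession stands for 10 of the 24 genes, so that reads common to several accessions of a gene play no part in their counts, and 9 of these 10 were at 0, beside 58.9% of all single-accession genes. Of the 24, 1 shares exon bases with a gene on the opposite strand, as do 5 of the brain and 2 of the neutrophil genes described next, and all of these had 0 counts, beside 49.8% of all genes with such an overlap.

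Other genes of brain and neutrophils were likewise at or near 0. Of 19 other genes of oligodendrocytes and neurons, 18 had no count, among them the myelin gene Mbp and the oligodendrocyte transcription factor genes Olig2 and Sox10, and Myrf had 1 and 0. Their 7 single-accession genes included 6 at 0. Of 13 other neutrophil granule genes 11 had no count, as had 10 of the 12 with a single accession, including the granule genes Elane, Prtn3 and Mpo. The remaining neutrophil genes were the metalloproteinase gene Mmp9 with 2 and 0 counts and Lcn2 with 0 and 1.

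Other leukocyte genes were counted at low levels. Of 17 others, 9 had a count in at least 1 library, with 16 counts in all in the control and 23 in the transgenic library. Lyz2, the lysozyme of macrophages and neutrophils, had 6 and 15, the integrin gene Itgax 5 and 1, and the macrophage receptor gene Csf1r 3 and 1. Itgb2, the beta subunit that Itgad needs to reach the cell surface, had 0 in both, as did the leukocyte marker Ptprc and the related integrin genes Itgam and Itgal. Each of these 4 genes has several accessions, so their 0 may leave out reads common to them, and of 8 leukocyte genes with a single accession only 1 was at 0. In bulk tissue, fewer cells of a type and less RNA per cell cannot be told apart.

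Heart muscle genes were counted in both libraries, but not all of them. Of 12 cardiomyocyte genes 10 had a count, with 4936 and 8123 counts in all. The ventricular light chain gene Myl2 had 2405 and 3916, the cardiac actin gene Actc1 906 and 1525 and the troponin I gene Tnni3 783 and 1374. The cardiac troponin T gene Tnnt2 (9 accessions) and the light chain gene Myl3 had 0 in both libraries, and the myosin heavy chain gene Myh6 had 0 and 1. These 3 genes have several accessions, whereas of the 6 heart genes with a single accession 0 were at 0. A gene with several accessions listed at 0 here is therefore not shown to be absent from the heart. For single-accession genes at 0 these heart genes give no such example, and the floor of 3 counts still applies.

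**Figure D3:**
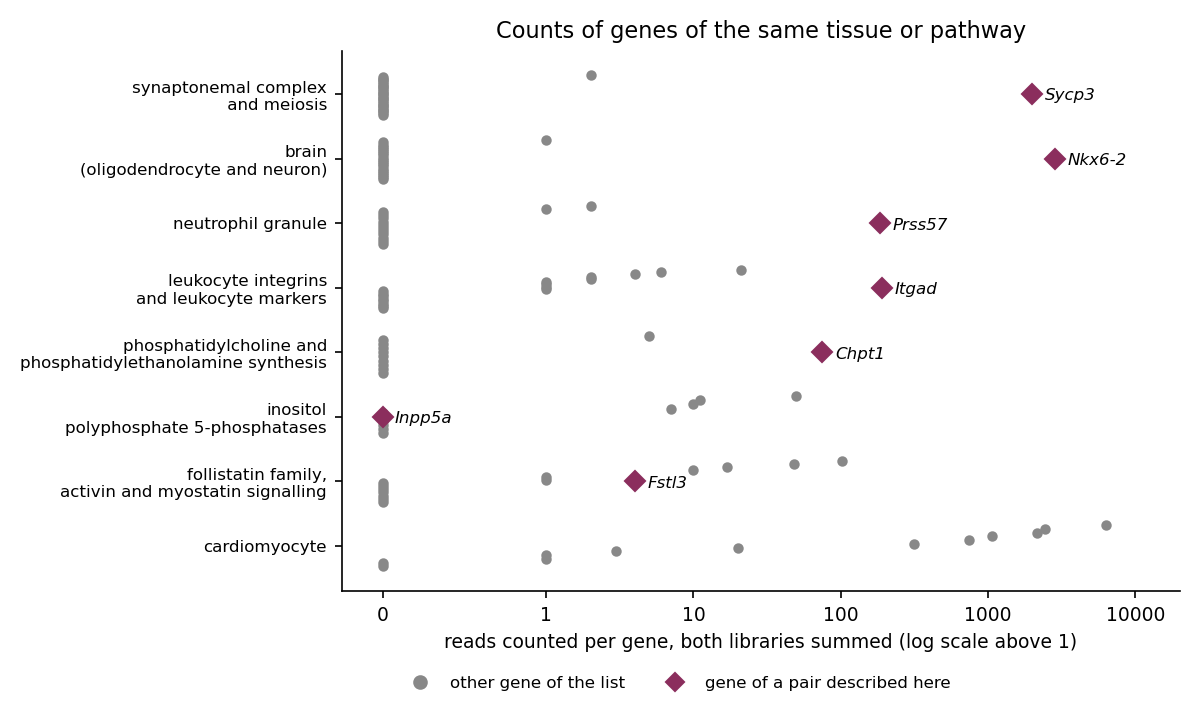
Counts per gene summed over both libraries (log axis above 1) for 8 lists of genes of the same tissue or pathway; diamonds are the genes of the pairs described, and grey points the other genes of each list. Sycp3, Nkx6-2 and Prss57 stand apart from the other genes of their lists, of which none exceeds 2 counts in a library.

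Genes of the pathways of Chpt1, Inpp5a and Fstl3 were set against the 32.8% of all genes with a count in at least 1 library. Of 10 other genes of phosphatidylcholine and phosphatidylethanolamine synthesis, Etnk1, an ethanolamine kinase gene, was counted with 0 and 5, and the other 9 were at 0. Of these 10 genes, 8 have several accessions. Among 10 other inositol polyphosphate 5-phosphatase genes 4 had a count: Inppl1, which encodes SHIP2, had 21 and 29, Inpp5k 4 and 7, Inpp5j 6 and 4, and Ocrl 2 and 5. Among 13 other genes of follistatin, activin and myostatin signalling 6 had a count, led by the activin receptor genes Acvr2a with 46 and 56 and Acvr1b with 20 and 28, and Fstl1 with 5 and 12. Fst, the founding follistatin gene, and the myostatin gene Mstn had 0 in both libraries.

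Between the genotypes, most of the members stayed close to a ratio of 1. A ratio is the count in the transgenic over that in the control library after TMM scaling (trimmed mean of M-values, edgeR), and was given where a gene had more than 3 counts in a library, as 7 of the 9 members and 16.9% of all genes did. Inpp5a and Fstl3 fell below this. A gene was called higher or lower if its ratio was at least 2-fold with the counting interval on the same side of 1. Prss57 and Itgad were called higher, the remaining 5 were neither and none was called lower. Over all 4236 genes with a ratio 6.19% were called, 2.48% higher and 3.71% lower. This balance turned with the scaling, from 105 higher and 157 lower to 157 and 111 with DESeq2 size factors and 167 and 95 with total counts alone. The members were chosen with these ratios known, and nothing is read from their count against this background.

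**Figure D4:**
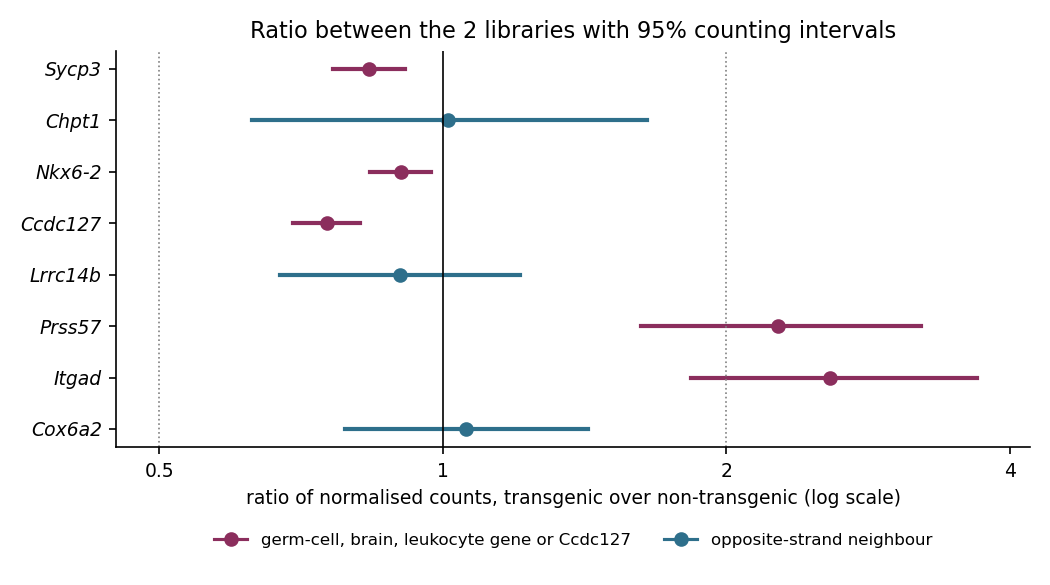
Ratio of scaled counts, transgenic over control, on a log axis, with 95% counting intervals from 1 library per group; the solid line marks 1 and dotted lines 2-fold. The ratios of Prss57 at 2.27 and Itgad at 2.58 lie apart from the others, which range from 0.753 to 1.06. The interval of Prss57 overlaps that of Chpt1.

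Prss57 was 2.27-fold higher in the transgenic library (1.62 to 3.22) and Itgad 2.58-fold higher (1.84 to 3.69). The highest interval bound of the other members with a ratio was that of Chpt1, at 1.65. Other leukocyte genes had too few counts to set beside them: Lyz2 had a ratio of 1.99 (0.729 to 6.25) and Itgax 0.159 (0.00336 to 1.42). The summed neutrophil granule genes other than Prss57 went from 2 counts to 1, and the summed leukocyte genes other than Itgad from 16 to 23, and the part of leukocytes in either ratio was not tested. Cox6a2, opposite Itgad, had a ratio of 1.06 (0.786 to 1.43), and Fstl3, opposite Prss57, was too low to give a ratio.

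The highly counted Sycp3, Nkx6-2 and Ccdc127 were slightly lower in the transgenic library. The ratio was 0.835 (0.763 to 0.912) for Sycp3, 0.902 (0.837 to 0.971) for Nkx6-2 and 0.753 (0.694 to 0.817) for Ccdc127. With total counts alone Nkx6-2 turned to 1.01 and Sycp3 moved to 0.938 (0.858 to 1.03), while Ccdc127 stayed below 1 at 0.846 (0.780 to 0.918). For the opposite genes the ratio was 1.01 (0.626 to 1.65) for Chpt1 and 0.900 (0.672 to 1.21) for Lrrc14b, each interval holding 1 and also the ratio of the gene across from it. The median log2 ratio of the 7 members was -0.15, beside 0.05 over all genes with a ratio. For the more counted gene of the 357 opposite-strand pairs described below, the members' pairs included, the median was -0.33. On that scale Sycp3 had -0.26, Nkx6-2 -0.15, Ccdc127 -0.41 and Prss57 1.18. A slightly lower ratio was thus not particular to Sycp3, Nkx6-2 and Ccdc127. Apart from Prss57 and Itgad, no gene of the lists was called. The median log2 ratio was 0.37 for the 7 cardiomyocyte genes with a ratio, 0.31 for 4 inositol 5-phosphatase genes, 0.05 for 4 genes of follistatin and activin signalling, and 0.99 for Itgad, Lyz2 and Itgax.

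Uneven counts within a pair were common in these libraries. The background was 357 opposite-strand pairs that share at least 1 exon base and have at least 100 counts over both genes and libraries. In these the more counted gene held a median of 98.2% of the counts, and in 74.5% of pairs it held at least 90%. A gene with several accessions may lack reads common to them, and the pairs were not separated by this. By total count the Nkx6-2 pair ranked 10 of the 357 pairs, the Ccdc127 pair 12, the Sycp3 pair 15, the Itgad pair 125 and the Prss57 pair 228. By the share on the more counted gene, 207 pairs were more uneven than Sycp3 and Chpt1 and 255 more than Ccdc127 and Lrrc14b. More uneven than Prss57 and Fstl3 were 185 pairs. The 100% of Nkx6-2 and Inpp5a is the highest share possible, and many other pairs also reached it. Itgad and Cox6a2, with 191 counts each over both libraries, were the least uneven of all. That evenness came from summing libraries that leaned opposite ways, with 35.4% on Itgad in the control and 57.3% in the transgenic library. The kit used to make the libraries keeps strand origin, but the strand setting of the counting is not given in the sources used here, so the counts of either gene of a pair could not be assigned to a strand with certainty.

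**Figure D5:**
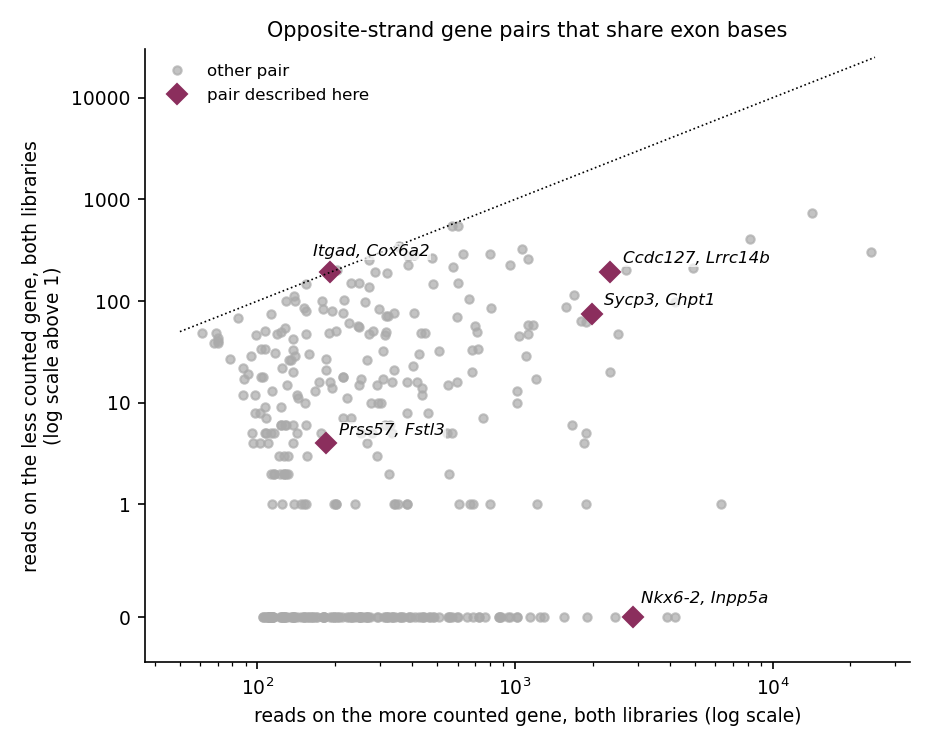
Counts over both libraries on the more counted (horizontal) and the less counted (vertical) gene of 357 opposite-strand pairs that share exon bases; log axes, the vertical one linear from 0 to 1, with a dotted line at equal counts. The diamonds of Sycp3, Ccdc127 and Nkx6-2 lie toward the right, among the 15 pairs with most counts, and Itgad with Cox6a2 lies on the line.

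For each complete pair the most similar other pair was taken by distance over the log2 odds of its counts and the log2 ratio of its more counted gene, a likeness that rests on 2 libraries only. Sycp3 and Chpt1 were nearest to Dcdc2b (134 and 142 counts) and Tmem234 (5 and 5), at a distance of 0.0141. Ccdc127 and Lrrc14b were nearest to Gm16537 (357 and 345) and Gpd1 (23 and 34), at 0.0353. Nkx6-2 and Inpp5a were nearest to Acat3 (1245 and 1193) and Tcp1 (0 in both), at 0.336. Prss57 and Fstl3 had no close match: the nearest pair, 4930404N11Rik (52 and 79) and Mfsd12 (3 and 0), lay at 0.920, with a ratio of 1.21 against the 2.27 of Prss57.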

How the data were processed

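The deposited values were raw counts of reads per RefSeq transcript accession, with STAR, HTSeq and the mm10 build (GRCm38) named in the submitters' processing notes; versions, annotation, strand setting and treatment of shared reads were not given in the sources used here. The control (non-transgenic) library totalled 170543 counts and the transgenic one 190824, so 1 count is 5.86 and 5.24 CPM. Of 41449 accessions, 41252 were named from the RefSeq gene table (GRCm38.p6) and 99 from GENCODE M21, and counts were summed per gene; the 98 others were kept as rows of their own. All 9 members matched in both tables. Gene spans are from the RefSeq table, exons from GENCODE.

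Libraries were scaled with TMM (edgeR 4.0.16, R 4.3.3; factors 0.943 and 1.06). Ratios and shares have exact Clopper-Pearson intervals and counts per kb exact Poisson intervals, at 95%, in scipy 1.17.1. With 1 library per group no test was fitted. Calculations were tested on simulated data. In the likeness of pairs 0.5 was added to each count. Named were all members, up to 3 most counted other genes per list with any count, called list genes and the nearest pairs; other genes named from the lists, such as those at 0, were chosen after their values were seen. The members and lists were chosen with earlier results of these data known. Alternatives were other scalings, filters, folds, accessions and lengths.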

Additional observations from a re-analysis of the deposited data

How the results depend on the processing

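Of 98 alternative values for 50 results, 82 stayed within counting error or within 1.5 times of a count. Some of these could not move. Every counted member had all its counts on 1 accession, so taking the most counted accession alone left its ratio and share unchanged. The 82 therefore overstates how many values were put to a test. The calls of Prss57 and Itgad as higher, and the number of 2 members called, held under every scaling tried. The other fold, 1.5, and the other filters could not remove either call. They could only have added members and added none, and no stricter fold was tried. DESeq2 size factors shifted all log2 ratios by 0.11 and total counts alone by 0.17, which moved the share of higher among all calls from 40.1% to 58.6% and 63.7%. The ratio of Nkx6-2 moved to 0.972 with DESeq2 size factors and to 1.01 with total counts alone, which also moved Sycp3 to 0.938 and Ccdc127 to 0.846. Per exonic kb, the share on Sycp3 became 99.5% and 99.4% and that on Ccdc127 79.2% and 76.1% in the control and transgenic library. With the length of the counted accession alone, counts per kb became 850 and 892 for Sycp3, 8.47 and 10.8 for Chpt1, and 449 and 425 for Ccdc127. With at least 10 counts required, the phospholipid and 5-phosphatase lists kept 1 gene each with a ratio. No paired analysis was possible because each group has 1 library and the labels give no replicate numbers, and no library could be left out. At these totals a gene under the floor of 3 counts cannot be told from 0.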

Other observations

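In the 5-phosphatase list another gene with exon bases shared across strands was chosen after its values were seen: Inppl1 had 50 counts over both libraries, and Phox2a, a transcription factor gene of autonomic neurons that shares exon bases with it on the opposite strand, had 123. Which exons they share was not examined.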
